A study of Mus musculus with 4 samples.

Results

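The 10 genes of a signalling route were followed through 4 RNA sequencing libraries: the transcription factor gene Stat3, the feedback inhibitor genes Socs1, Socs2 and Socs3, the ligand genes Il6 and Lif, and the receptor genes Il6ra, Il6st, Lifr and Osmr. They were chosen by symbol, through the mouse Ensembl identifiers of the count table, and all 10 of 10 were found among its 39056 genes. Of the 10, 8 were measured, that is, at a level of 1 CPM (reads scaled by library total and TMM factor) or more in some library; Il6 and Lifr were below it in all 4. Among all genes 11803 were measured.

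The libraries carry 4 labels, 1 library each: mice given no LPS, and mice at 8, 16 and 20 h of lipopolysaccharide (LPS, a bacterial endotoxin) at 10 mg/kg into the peritoneum. All were mice with a green fluorescent reporter for the S1P receptor S1PR1, and the labels give the cells as lung endothelium, sorted for the reporter and CD31 and against CD45. The sources used here do not say how many animals stand behind a library, or their age. The protocol can be read as times since LPS or as times of LPS, and its 24 h point is not analysed here. With 1 library per label no difference between labels can be tested against the spread between samples. The series title concerns S1PR1+ endothelium and the recovery of the lung vessel barrier.

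Cytokines of the IL-6 family, among them IL-6, LIF and oncostatin M, signal through receptors that share the subunit gp130, the product of Il6st. Further subunits, among them the products of Il6ra for IL-6, Lifr for LIF and Osmr for oncostatin M, help set which ligands a cell can sense. Ligand binding activates JAK kinases bound to the receptor, which phosphorylate STAT3; STAT3 then enters the nucleus and switches on its target genes. Socs3 is a classic target, and its protein shuts off gp130, while SOCS1 mainly inhibits JAK kinases downstream of interferon receptors and SOCS2 restrains growth hormone signalling. In endothelium, IL-6 family signals are known to raise chemokine and adhesion genes.

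Groups of 4 values always follow the order no LPS, 8 h, 16 h, 20 h. The totals ran from 27566454 to 28905776 reads, and 3 reads, the 1-sided 95% upper limit for a count of 0, were 0.104 to 0.108 CPM. Most defining endothelial transcripts were near absent in all 4 libraries: of 14 endothelial markers 3 were measured and 3 had no read in any library. Pecam1, the CD31 gene, had 7, 2, 2 and 1 reads, Cdh5 (VE-cadherin) had 5, 6, 6 and 9, Kdr (a VEGF receptor) had 8, 12, 9 and 3, and Tek had 0, 0, 0 and 2. The 3 measured markers were Eng, with 53.6, 54.1, 57.2 and 55.4 CPM, Flt1, with 11.7, 27.3, 28.3 and 11.4 CPM and called higher at 8 and 16 h, and Egfl7, with 3.08, 4.28, 4.19 and 3.36 CPM. Times such as "at 8 h" therefore name the library with that label. Bulk RNA cannot tell fewer cells of a type from less RNA per cell. Intervals are 95% counting intervals, exact Poisson for a level and exact binomial (Clopper-Pearson) for a fold, and they leave out the variation between animals. A gene is called higher or lower by size alone: a fold of at least 2, an interval without 1 in it, and a level of 1 CPM or more in whichever library is higher.

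Promoter sequences of 9 members were in the RefSeq table of build GRCm38.p6, the build of the counts (mm10). Socs2 was the exception. Those of the 4 genes whose levels carry the results are shown, as the 250 bases before the RefSeq start on the coding strand: Socs1 (chr16:10785537-10785786, minus strand), Socs3 (chr11:117969367-117969616, minus strand), Stat3 (chr11:100939541-100939790, minus strand) and Il6st (chr13:112463820-112464069, plus strand). Capitals mark matches to TTCNNNGAA, the letters of a STAT dimer site, and to GAAANNGAA, the core of the interferon-stimulated response element, both searched on both strands.
Socs1: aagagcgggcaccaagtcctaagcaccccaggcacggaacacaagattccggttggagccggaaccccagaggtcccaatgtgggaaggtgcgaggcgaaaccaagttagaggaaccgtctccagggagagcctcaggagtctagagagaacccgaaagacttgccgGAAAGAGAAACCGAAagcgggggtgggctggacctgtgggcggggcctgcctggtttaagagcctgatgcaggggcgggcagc
Socs3: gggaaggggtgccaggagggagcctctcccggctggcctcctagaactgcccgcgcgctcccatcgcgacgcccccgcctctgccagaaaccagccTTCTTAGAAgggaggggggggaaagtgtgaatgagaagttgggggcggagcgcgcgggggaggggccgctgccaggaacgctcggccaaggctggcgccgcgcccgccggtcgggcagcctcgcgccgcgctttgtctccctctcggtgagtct
Stat3: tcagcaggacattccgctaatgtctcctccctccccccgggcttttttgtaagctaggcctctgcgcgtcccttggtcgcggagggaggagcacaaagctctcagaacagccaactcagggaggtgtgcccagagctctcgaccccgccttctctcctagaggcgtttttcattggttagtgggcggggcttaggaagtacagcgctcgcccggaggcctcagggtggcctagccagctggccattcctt
Il6st: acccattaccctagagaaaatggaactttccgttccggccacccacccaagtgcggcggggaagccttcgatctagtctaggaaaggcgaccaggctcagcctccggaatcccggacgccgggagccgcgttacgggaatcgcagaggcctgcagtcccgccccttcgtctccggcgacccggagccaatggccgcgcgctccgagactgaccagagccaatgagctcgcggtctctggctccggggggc
The Socs3 window held the STAT letters once, as TTCTTAGAA, starting 154 bases before the RefSeq start site. That window lies inside the longer GENCODE span of the gene (117966079 to 117970047), as do those of Osmr and Lifr inside theirs, so upstream here refers to RefSeq starts only. In the Socs1 window the response element core matched at 83 and again at 77 bases before the start, as GAAAGAGAA and GAAACCGAA, which overlap. Neither motif matched in the Stat3 and Il6st windows, nor in those of Il6, Il6ra, Lif, Lifr (2 start sites) and Osmr. Among 27025 promoters of that length, 1 per gene, 7.18% held the STAT letters and 7.16% the response element core. A match describes letters only.

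Between genes, levels can be compared only per length of exon, as CPM per kilobase of exon (RPKM). The gp130 gene Il6st was highest, at a mean of 21.04 RPKM over the 4 libraries, followed by Lif at 14.4, Socs3 at 7.53, Stat3 at 6.98, Socs2 at 1.40, Socs1 at 1.39, Il6ra at 1.13, Osmr at 0.484, Lifr at 0.0454 and Il6 at 0.0441 RPKM. Ranges over the libraries overlapped between Socs3 (6.29 to 8.21 RPKM) and Stat3 (5.89 to 8.16 RPKM). They also overlapped among Socs2, Socs1 and Il6ra, and between Lifr and Il6, so the order within these groups is not fixed. The cells thus held transcripts of the shared receptor, a ligand, the transcription factor and its inhibitors, and few or none of the LIF receptor gene and of Il6 itself. Per length, Il6st stood 13.9 to 22.4 times above Il6ra and 36.9 to 51.1 times above Osmr.

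**Figure D1:**
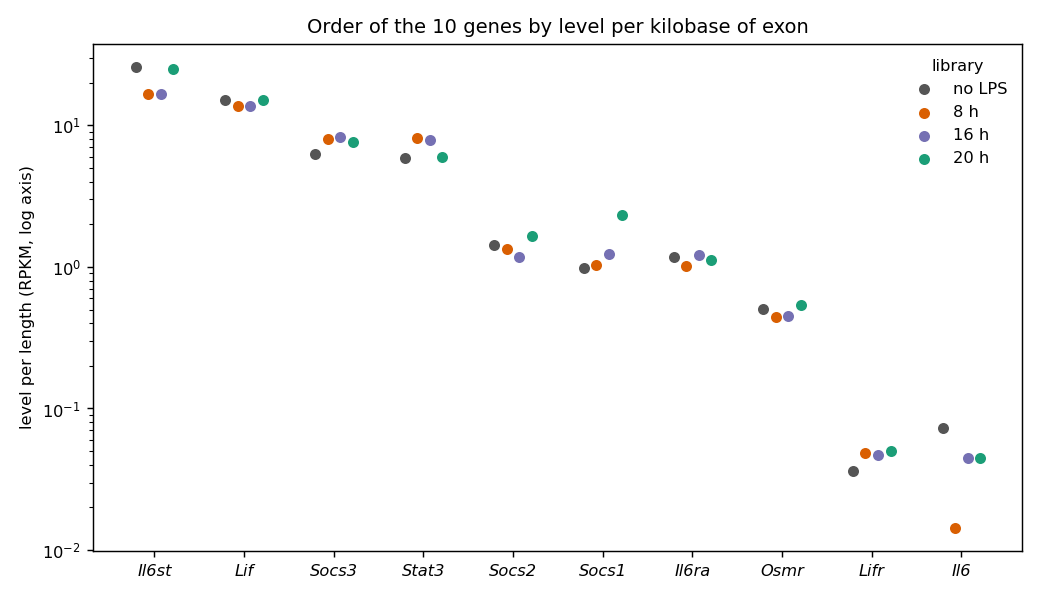
Level per kilobase of exon (RPKM, log axis) of the 10 genes, 1 point per library coloured by label, ordered by the mean over the 4 libraries. Il6st leads at a mean of 21.04 RPKM and Il6 is last at 0.0441 RPKM; the points of Socs3 and Stat3 overlap.

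Of the 2 ligand genes, Lif was well transcribed and nearly level. Lif (ENSMUSG00000034394, chromosome 11, 4257557 to 4272514, plus strand) encodes leukaemia inhibitory factor, which keeps stem cells undifferentiated and acts on many tissues. It had 66.0, 59.5, 59.9 and 65.1 CPM. The 8 h and 16 h levels were 1.11-fold (1.04 to 1.18) and 1.10-fold (1.03 to 1.18) below no LPS, differences past counting error that 34.8% and 35.7% of measured genes matched or passed in the same direction. Il6, a textbook LPS-induced cytokine gene (chromosome 5, 30013114 to 30019981, plus strand), had 5, 1, 3 and 3 reads. Its levels of 0.177, 0.0348, 0.108 and 0.108 CPM lie around the floor of 3 reads, and no difference between labels was detectable at this depth.

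Among the receptor genes, Il6st differed most between the libraries. Il6st (ENSMUSG00000021756, chromosome 13, 112464070 to 112510086, plus strand) had 8093, 5339, 5145 and 7651 reads, or 286, 186, 186 and 276 CPM. The libraries labelled 8 and 16 h are low and those labelled no LPS and 20 h are high, with a wide gap and no overlap of counting intervals between these levels. Against no LPS the level at 8 h was 1.54-fold lower (1.49 to 1.59) and at 16 h 1.54-fold lower (1.49 to 1.60), short of the 2-fold rule, so neither was called. At 20 h it was 0.965 times the level with no LPS (0.935 to 0.996). Ratios at least as low as that of Il6st at 8 h were found for 8.85% of measured genes.

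The genes of the further subunits, Il6ra, Osmr and Lifr, were low, with small differences. Il6ra (chromosome 3, 89864059 to 89913196, minus strand), which gives the cell its own IL-6 binding subunit, had 10.2, 8.81, 10.4 and 9.61 CPM. Osmr (chromosome 15, 6813577 to 6874969, minus strand), the oncostatin M subunit, had 6.12, 5.36, 5.49 and 6.50 CPM. For both genes every fold against no LPS had an interval that included 1; the widest departures were 0.865 (0.728 to 1.03) for Il6ra and 0.876 (0.701 to 1.10) for Osmr, both at 8 h. Lifr (chromosome 15, 7090614 to 7197489, plus strand), the LIF subunit, had 11, 15, 14 and 15 reads, or 0.389, 0.522, 0.505 and 0.542 CPM. Its gene lies 216 kb from Osmr. Its fold at 8 h was 1.34 with an interval of 0.576 to 3.23, so no difference was detectable at this depth.

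Stat3 ran opposite to Il6st. Stat3 (ENSMUSG00000004040, chromosome 11, 100885098 to 100939540, minus strand) had 1585, 2232, 2092 and 1573 reads, or 56.1, 77.7, 75.5 and 56.8 CPM. Here the 8 h and 16 h libraries are the high ones, again with no overlap of the intervals. The 20 h level was 1.01-fold that of no LPS (0.944 to 1.09), and 16 h was 1.33-fold above 20 h (1.24 to 1.42). The fold of 1.39 at 8 h (1.30 to 1.48) fell short of the rule, and 14.8% of measured genes had a ratio at least as high.

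The same stretch of chromosome 11 holds the related genes Stat5a (100859351 to 100885169, plus strand) and Stat5b (100780731 to 100850724, minus strand), which act downstream of growth hormone and several cytokines. Stat3 and Stat5a overlap tail to tail by 72 exonic bases, on opposite strands, and the sources used here do not say how strand was handled in counting, so both values are uncertain there. Stat5b had 30.1, 50.5, 50.2 and 30.8 CPM, a fold of 1.67 at 8 h (1.54 to 1.82). Stat5a had 6.23, 3.83, 4.33 and 5.38 CPM, 1.63-fold lower at 8 h (1.27 to 2.08). Thus the 3 neighbours did not share a direction at 8 h, and none of them was called.

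The inhibitor genes each had a pattern of their own. Socs1 (ENSMUSG00000038037, chromosome 16, 10782240 to 10785536, minus strand) had 81, 86, 99 and 187 reads, or 2.87, 2.996, 3.57 and 6.75 CPM. The 20 h library stands alone: its interval of 5.82 to 7.79 CPM lies above those of the 3 other libraries, which overlap one another. Socs1 was 2.36-fold higher at 20 h than with no LPS (1.81 to 3.10) and was the only member called in any of the 5 comparisons made. Ratios at least as high were rare in that comparison, at 0.330% of measured genes. From 16 h to 20 h its fold was 1.89 (1.47 to 2.44), not called.

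Socs1 has a GC-rich transcript, and GC-rich genes made up much of what was called higher at 20 h. Its longest transcript is 58.8% G and C, more than in 93.6% of measured genes, and its exons span 2908 bases. Of the 65 genes called higher at 20 h against no LPS, 32 (49.2%) lay among the 1180 genes of highest transcript GC content, of which 2.71% were called higher. After subtraction of the fitted dependence on GC content, Socs1 stood at 2.22-fold and was still called. Among the 1053 measured genes within 2 GC points of Socs1 and at most 2 times its exonic length, 10 (0.950%) were called higher and the median log2 ratio was 0.068. Socs3, with 58.7% G and C and 2891 exonic bases, is one of these genes and had a fold of 1.21 at 20 h. The leukocyte marker Cd53 was also called higher there, at 1.23 against 0.495 CPM, while Ptprc, the CD45 gene, had 38 against 42 reads. Cd53 was the 1 call among 6 measured leukocyte markers, whose median log2 ratio at 20 h was -0.0038. The summed level of the 8 leukocyte markers ranged from 9.20 to 10.6 CPM over the libraries, with none at 0. The part of GC content and of these markers in the Socs1 result was not tested.

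Next to it, 3 genes followed the 4 levels of Socs1 most closely by the root mean square difference of centred log2 CPM, among 8598 genes of at least 10 CPM on average. They were H2afj, a histone gene, at a difference of 0.037, Pgp, a phosphatase gene, at 0.042, and Hic1, a transcriptional repressor gene, at 0.12. H2afj had 9.73, 10.6, 13.0 and 23.3 CPM. Likeness over 4 libraries is a description of these columns.

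Socs3 (ENSMUSG00000053113, chromosome 11, 117966079 to 117970047, minus strand) was a little above no LPS under every LPS label. It had 18.2, 23.2, 23.7 and 22.03 CPM, from 514, 665, 658 and 610 reads. The no LPS library is the low one, and the 3 others overlap. Folds against no LPS were 1.27 (1.13 to 1.43), 1.31 (1.16 to 1.47) and 1.21 (1.08 to 1.36), and none was called. Socs2 (chromosome 10, 95385362 to 95417180, minus strand) had 13.6, 12.7, 11.2 and 15.9 CPM, lowest at 16 h and highest at 20 h. Socs2 stood 1.41-fold higher at 20 h than at 16 h (1.22 to 1.64), not called. The largest spread of the 3 inhibitor genes was that of Socs1, 2.36-fold from lowest to highest, against 1.41-fold for Socs2 and 1.31-fold for Socs3.

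**Figure D2:**
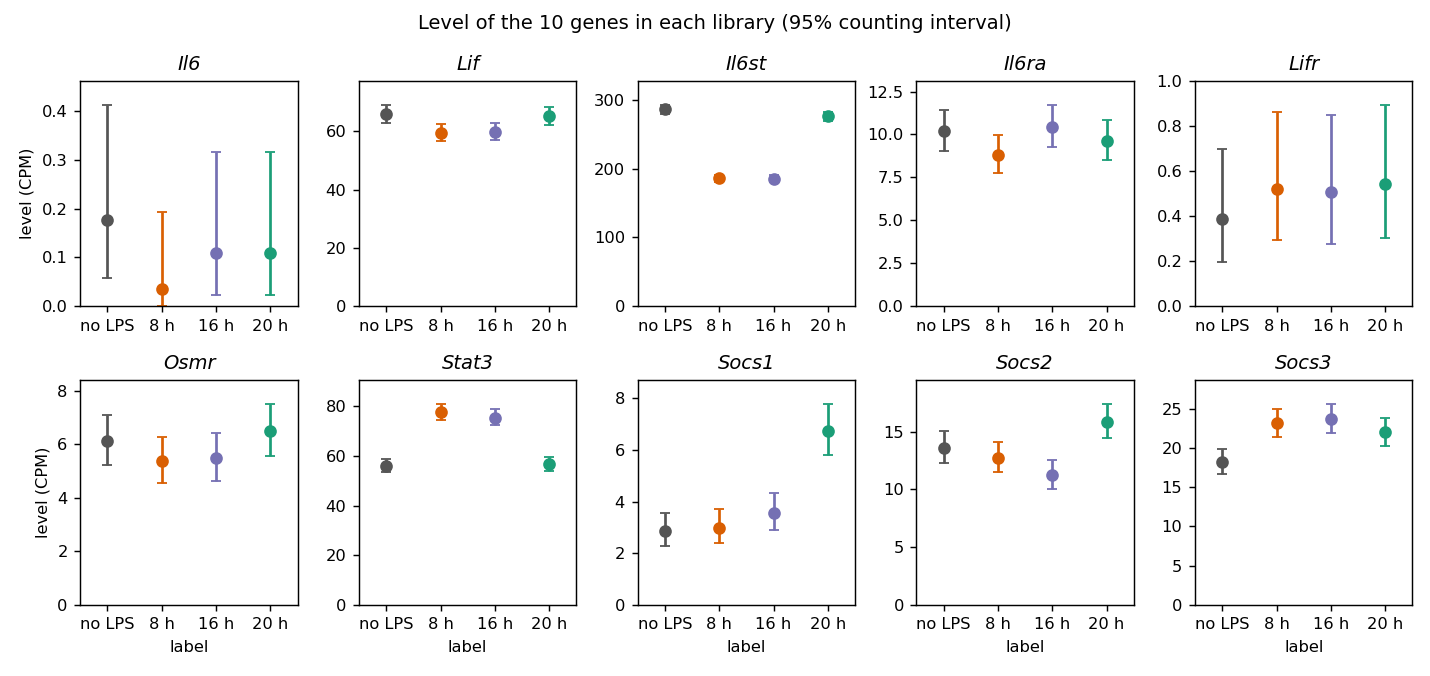
Level in CPM (vertical axes, from 0, a scale of its own for each gene) of the 10 genes, 1 point per library label; bars are 95% Poisson counting intervals of 1 library. Il6st is low and Stat3 high at 8 and 16 h, Socs1 stands apart at 20 h (6.75 CPM), and Il6 and Lifr stay below 1 CPM.

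Counted over the members, few differences were large. Against no LPS, 0 of the 8 measured members were called at 8 h, where 4.19% of measured genes were called higher and 4.13% lower. At 16 h it was again 0 of 8, beside 4.13% higher and 4.09% lower. At 20 h 1 of 8 was called higher, Socs1, beside 0.551% higher and 0.102% lower. Between successive labels 0 of 8 were called from 8 to 16 h, beside 0.161% higher and 0.0763% lower, and 0 of 8 from 16 to 20 h, beside 4.63% higher and 3.85% lower. These 3 comparisons with no LPS share that library, so they are not separate evidence. Beside these background shares, counts of 0 of 8 are near what all genes showed.

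Median log2 ratios of the 8 measured members were -0.12, -0.053 and 0.052 at 8, 16 and 20 h against no LPS, where all measured genes had 0.0041, 0.0055 and -0.0023. From 8 to 16 h the members' median was 0.021, against -0.0016 over all genes, and from 16 to 20 h it was 0.18 against 0.014. No member's interval excluded 1 between the 8 and 16 h libraries, while 5 did between 16 and 20 h (Stat3, Socs1, Socs2, Il6st and Lif). A linear trend over 0, 8, 16 and 20 h, the one test made across the 4 libraries, found none of the 8 members (edgeR quasi-likelihood test with Benjamini-Hochberg adjustment over all genes, lowest adjusted p = 0.9999 of a member). The same test called 0 of all 11803 genes (0%), with 43 at an unadjusted p under 0.05 and no member among them; DESeq2 also called 0, with 25 unadjusted. Among the 65 other pathway genes 0 passed and 2 had an unadjusted p under 0.05 in edgeR. Socs1 had the steepest slope of the members, 0.055 log2 units per hour (unadjusted p = 0.075 in the edgeR test). The test has 2 residual degrees of freedom and looks for a steady slope, which levels such as those of Il6st and Stat3, high or low in the middle, do not give. With 1 library per label its spread is estimated from departures from that slope, and such levels widen it. Only 0.364% of genes had an unadjusted p under 0.05 in edgeR, so the lack of calls does not show that levels stayed the same.

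**Figure D3:**
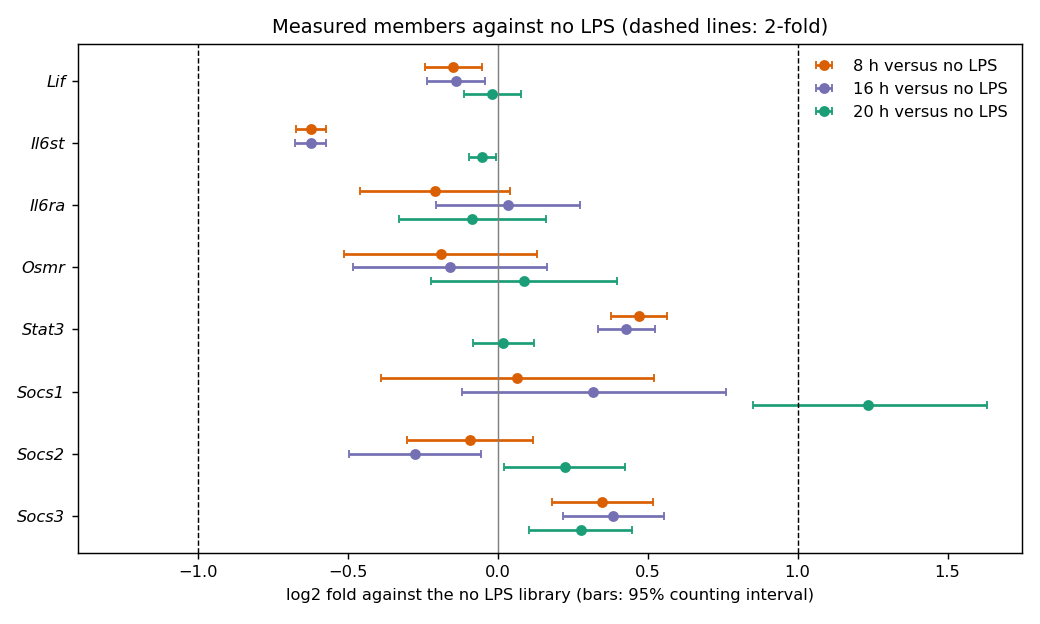
Log2 fold of the 8 measured members in the libraries labelled 8, 16 and 20 h against no LPS (horizontal axis), with 95% counting intervals; dashed lines mark 2-fold. Socs1 at 20 h (2.36-fold) is the only point past a dashed line, and Il6st at 8 and 16 h lies at 1.54-fold lower.

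Other genes of the route were taken from lists that hold 95 further genes, 65 of them measured. At 8 h 4 of these were called higher and 3 lower, at 16 h 3 and 3, and at 20 h 2 and 0, against the background shares given above. Among the 11 ligand genes of the family, 5 were measured. Clcf1, which encodes a cytokine of the CNTF receptor, had 16.2, 27.5, 25.4 and 16.3 CPM, a fold of 1.70 at 8 h (1.51 to 1.91), not called. Il11, a gp130 cytokine studied in fibrosis, had 13.1, 19.0, 19.6 and 14.9 CPM, and the cardiotrophin gene Ctf1 had 3.08, 2.68, 2.56 and 3.47 CPM. The oncostatin M gene Osm, which lies 16.5 kb from Lif and is named here after its values were seen, had 0, 1, 1 and 1 reads.

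Of the 8 receptor genes, 5 were measured and none was called under any label; Il27ra, an IL-27 receptor gene, had 0.814, 1.18, 1.23 and 1.08 CPM, and Il11ra1, for IL-11, had 2.72, 3.52, 2.89 and 2.78 CPM. All 4 JAK kinase genes were measured and none was called. Jak1, the main kinase of gp130, had 262, 281, 283 and 259 CPM, and Jak2 had 65.4, 61.9, 64.8 and 60.4 CPM. Tyk2, a kinase of interferon and IL-6 family receptors, had 64.1, 45.3, 45.3 and 64.7 CPM, 1.42-fold lower at 8 h (1.32 to 1.52). Jak3, the kinase of the common gamma chain, had 17.9, 14.1, 14.4 and 20.7 CPM. Of the 7 STAT genes 6 were measured and 0 called; Stat2, a factor of interferon responses, had 24.5, 13.8, 14.7 and 26.8 CPM, 1.77-fold lower at 8 h (1.57 to 2.01).

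In the SOCS box list 7 of 8 genes were measured, and Socs1 at 20 h was the one call. Socs4 had 100.02, 75.5, 76.7 and 96.8 CPM and Socs5 had 53.7, 66.1, 61.2 and 51.9 CPM; both are linked to restraint of the EGF receptor. Among the 10 measured of 11 other brakes none was called. Sh2b3, an adaptor that restrains JAK2, came closest, with 63.2, 121, 118 and 62.4 CPM and a fold of 1.91 at 8 h (1.81 to 2.03). Ptpn1, a phosphatase of JAK kinases, had 52.2, 78.7, 76.6 and 55.2 CPM. Pias4, a SUMO ligase that holds back STATs, was highest at 20 h, with 26.04, 30.8, 32.5 and 39.2 CPM, and Pias3, named for binding STAT3, had 29.9, 22.3, 22.9 and 28.2 CPM. The Pias4 transcript is 60.8% G and C, more than that of Socs1. The 2 protease genes of receptor shedding were not called; Adam10 had 180, 144, 146 and 180 CPM and Adam17 had 206, 181, 177 and 203 CPM.

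Of 25 known STAT3 target genes listed, 23 were measured. At 8 h 1 was called higher and 1 lower, at 16 h 1 and 1, and at 20 h 2 and 0. Over all measured genes the shares called higher and lower were 4.19% and 4.13% at 8 h and 4.13% and 4.09% at 16 h. At 20 h they were 0.551% and 0.102%. The list's counts at 8 and 16 h were thus near what all genes showed. Its median log2 ratio was -0.015, 0.13 and 0.12. The genes described next had the largest ratios of the list against no LPS. Cebpd, a C/EBP factor gene of the acute phase response, had 9.31, 4.01, 4.26 and 29.1 CPM. It was lower at 8 and 16 h and 3.13-fold higher at 20 h (2.72 to 3.61). Its relative Cebpb had 20.1, 15.7, 22.02 and 46.9 CPM and was 2.33-fold higher at 20 h (2.11 to 2.58). Both thus stood highest in the library where Socs1 did. Junb, an AP-1 gene, had 27.4, 37.6, 42.4 and 54.5 CPM, a fold of 1.99 at 20 h (1.82 to 2.17), just short of the rule. The transcripts of Cebpb (67.2% G and C) and Junb (62.6%) are richer in GC than that of Socs1, while that of Cebpd (51.6%) is not. The part of GC content in these 20 h levels was not tested. Birc5, an apoptosis inhibitor gene that is also a mitotic gene, had 32.6, 74.5, 71.6 and 31.9 CPM and was 2.29-fold higher at 8 h (2.11 to 2.47).

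Acute phase genes were mostly silent, with 4 of 17 measured. At 8 h 1 was called higher and 2 lower (median log2 ratio -1.07), at 16 h 1 and 2 (-0.97) and at 20 h none (-0.017). These are medians of 4 genes. Among all measured genes 4.19% were called higher and 4.13% lower at 8 h, with a median log2 ratio of 0.0041. For 16 and 20 h these shares and medians are given above. Lcn2, whose product withholds iron from bacteria, had 250, 24.8, 26.8 and 250 CPM, and the ceruloplasmin gene Cp had 45.0, 14.8, 13.7 and 43.8 CPM. Timp1, an inhibitor of metalloproteinases, went the other way, with 16.2, 37.9, 37.1 and 15.3 CPM. Saa3, a serum amyloid gene, had 1.91, 1.29, 1.62 and 2.35 CPM and was not called. Il6st therefore shared the low libraries of Lcn2 and Cp, and Stat3 the high libraries of Timp1 and Birc5, with far smaller folds. Many genes outside the route split the libraries in this way. At a fold threshold of 1.5, 20.1% of measured genes were called at 8 h against no LPS and 20.2% at 16 h. The shares were 2.05% at 20 h against no LPS and 0.804% from 8 to 16 h. Whether Il6st or Stat3 is linked to these target genes was not tested.

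**Figure D4:**
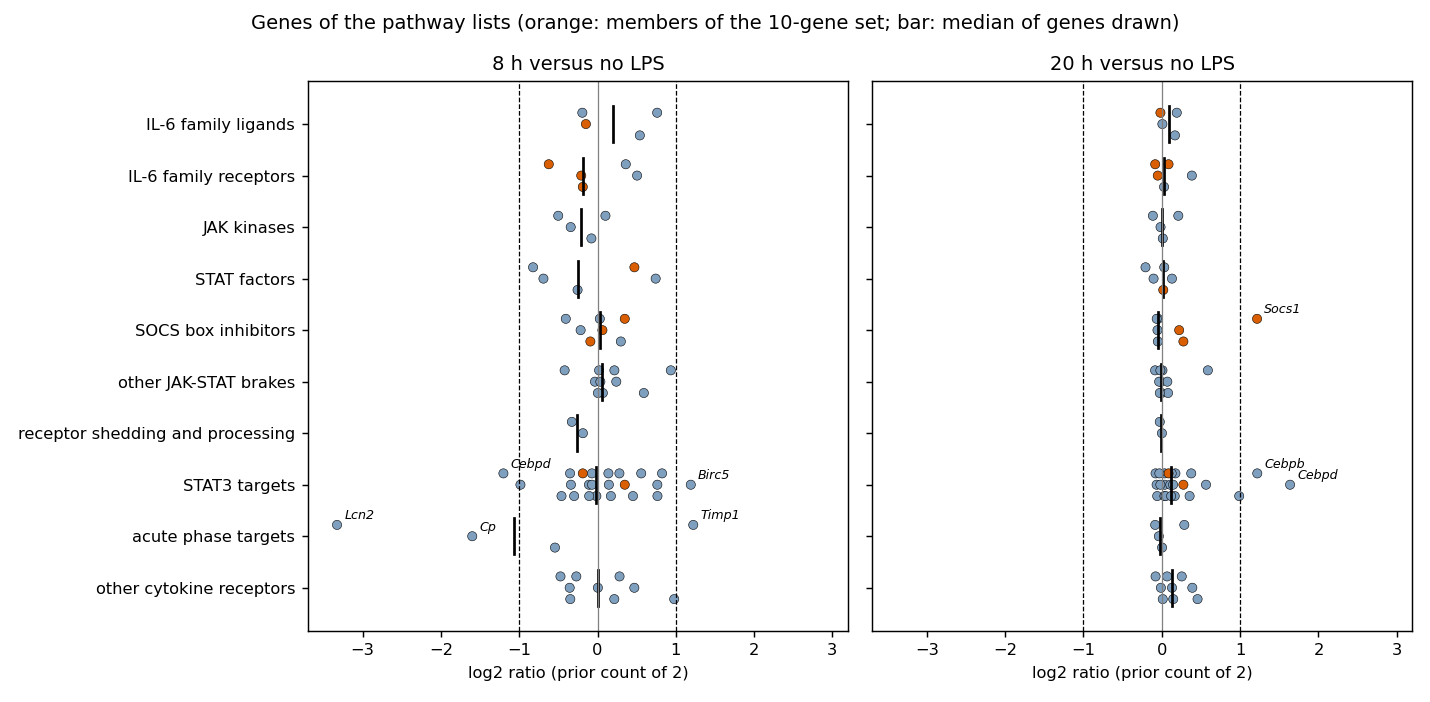
Log2 ratio (horizontal axis) of the measured genes drawn from the 10 pathway lists at 8 h (left) and 20 h (right) against no LPS; orange points belong to the 10-gene set, black bars are medians of the genes drawn and dashed lines mark 2-fold. Points spread widely at 8 h, led by Lcn2. Most lie close to 0 at 20 h, with Socs1, Cebpb and Cebpd beyond 2-fold and Junb just short of it.

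Markers of other cells, listed by name alone, moved with some of these levels. The summed level of the 10 macrophage markers was 140, 118, 115 and 144 CPM, mostly from Cd68 (99.7, 66.5, 62.0 and 96.6 CPM). The median log2 ratio of its 6 measured markers ran the other way from the sum, at 0.40 at 8 h and 0.36 at 16 h, with 2 and 4 intervals above 1 and 1 below each time. Adgre1 was called higher at 8 and 16 h (0.425, 1.08, 2.78 and 0.867 CPM), and Csf1r at 16 h. The 9 epithelial markers summed to 56.0, 127, 131 and 55.8 CPM, nearly all from the keratins in the list, with Sftpb at 0 in every library and Sftpc at 1 read or fewer. The keratin genes Krt8 and Krt18 were called higher at 8 and 16 h. The 9 fibroblast markers, 4 of them measured, summed to 1808, 1335, 1306 and 1738 CPM, although Col1a1 had at most 4 reads and Col1a2 at most 1. Col3a1 had 168, 81.8, 83.2 and 163 CPM, so most of the sum came from Pdgfra, Dcn and Fn1, the other measured genes of the list. Col3a1 and Dcn were called lower at 8 and 16 h. The 14 endothelial markers summed to 70.2, 87.2, 91.1 and 71.7 CPM. By the levels given above, most of the difference between these sums came from Flt1 alone. Eng, the largest part of each sum, was nearly level. The fibroblast sum and Cd68 were low where Il6st was low, and epithelial and endothelial sums were high where Stat3 was high; their part in these results was not tested.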

How the data were processed

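Polyadenylated RNA was sequenced in 4 libraries, 1 per label. The authors deposited raw counts of reads per gene, made with STAR and featureCounts on the mm10 build (named in the submitters' processing notes); the sources used here give no versions or settings. Symbols and coordinates came from GENCODE M21 on the same build (38872 of 39056 identifiers, 99.5%, matched). Columns were matched to samples by title.

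Counts were scaled with TMM factors in edgeR 4.0.16 (R 4.3.3); no count filter preceded the folds. RPKM used the union of annotated exons. Log2 ratios used a prior count of 2. The trend used glmQLFit and glmQLFTest on the measured genes, with DESeq2 1.42.0 as an alternative. Interval and trend code was tested on simulated data. The interval simulation held counting error only, and the trend simulation a smaller dispersion (spread beyond counting error) than the 0.061 fitted to these data. Neither shows how the methods behave on these libraries. GC curves were fitted by lowess with statsmodels (fraction 0.3). Members and lists were chosen with earlier results of these data known. Named genes were all members and, in each list, up to 4 measured genes with the largest absolute log2 ratio against no LPS. The rule also took the first 4 markers of each marker list, and the 3 genes nearest to any measured member with a spread of at least 2-fold. Of these markers, the values of Laptm5, Coro1a, Mrc1, Pdgfra, Epcam and Cdh1 are not given. Genes named outside that rule were chosen after their values were seen. They were Osm, Eng, Flt1, Egfl7, Dcn, Fn1, Krt8 and Krt18. Exons of Il6ra overlap the antisense gene Gm42809 by 242 bases. Values of 2 listed genes are not reported here, though counts over lists include them. The alternatives are other scalings, thresholds, filters, interval levels, thinning to the smallest total and a GC correction.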

Additional observations from a re-analysis of the deposited data

How the results depend on the processing

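The number of members called was recomputed under 50 alternatives over the 5 comparisons and kept its value in 45. With a fold threshold of 1.5 it became 1 at 8 h and 1 at 16 h against no LPS (Il6st, lower) and 1 from 16 to 20 h (Socs1, higher), where 20.1%, 20.2% and 20.97% of measured genes were called. The count of 1 at 20 h became 0 with a fold threshold of 4 and 0 with a minimum of 10 CPM, which Socs1 does not reach. All 300 log2 ratios of members under other scalings, prior counts and the GC correction, the last added for single members after seeing the data, stayed within the counting interval of the main value. The trend called 0 genes under each alternative run, with 18 to 2110 genes at an unadjusted p under 0.05 when 1 library was left out (1 residual degree of freedom) and 25 with DESeq2. No paired analysis was possible because each label has 1 library and no shared replicate numbers. Depth limits Il6, Lifr and Osm, which had at most 15 reads in a library.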

Other observations

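Receptors of other cytokines that use JAK kinases were also listed. Of 14 such genes 9 were measured. The erythropoietin receptor gene Epor was 2.07-fold higher at 8 h than with no LPS (1.17 to 3.79), on 40 against 19 reads, and was the only one called against no LPS. Csf2rb, the shared subunit of the GM-CSF, IL-3 and IL-5 receptors, was called higher from 8 to 16 h, on 36 against 17 reads (2.19-fold, 1.20 to 4.17). The growth hormone receptor gene Ghr had 57.1, 79.1, 77.6 and 59.8 CPM with no LPS and then by hour, and Il13ra1, an IL-13 and IL-4 receptor gene, had 4.32, 5.26, 6.50 and 4.73 CPM.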
